A study of Mus musculus with 6 samples.

Results

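Small proteins that cartilage cells secrete or carry on their surface are described here through 6 genes: Lect1, Ucma, 3110079O15Rik, Scrg1, Mia and Cytl1. They were taken by name from a table of 44788 genes, and all 6 were among the 15362 genes with enough counts to be tested. Lect1 is the older symbol of Cnmd, the chondromodulin gene, and 3110079O15Rik that of Snorc. RNA was sequenced from cultured chondrocytes, the cells that build cartilage, of the femoral epiphysis of C57BL/6 mice labelled as postnatal day 1. Cells had grown in DMEM/F12 with 10% FBS and every group received 0.1% DMSO. The TGF-alpha plus gefitinib group had 10 µM gefitinib for 30 min and then gefitinib together with 10 ng/ml TGF-alpha for 48 h. The TGF-alpha group had 10 ng/ml TGF-alpha for 48 h, and the control group had DMSO for 48 h. Each group had 2 libraries, with 12317407 to 16096263 counts per library. TGF-alpha binds and activates EGFR, the receptor for epidermal growth factor, and gefitinib blocks the kinase of that receptor. A group with gefitinib and no TGF-alpha was not analysed here, so the effect of the inhibitor on unstimulated cells was not measured. The design text names PBS for the control, where the sample labels name DMSO, and the labels also call the cells P2 without saying what that stands for. No label says whether the replicates were separate cultures or animals. P-values therefore measure the spread between these libraries, which may be technical.

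Cartilage is a tissue without vessels whose cells keep a matrix of type II collagen and aggrecan. Besides that matrix, chondrocytes release small proteins that act on neighbouring cells or on mineral. Chondromodulin is made as a membrane precursor, is cut free by a furin-type protease and restrains blood vessel growth. Ucma, also called Gla-rich protein, is cut in the same way and carries glutamates carboxylated by a vitamin K-dependent enzyme, which bind calcium. Snorc is a small transmembrane chondroitin sulfate proteoglycan. Scrg1 is a small cysteine-rich secreted protein first found through its rise in scrapie-infected brain. Mia, also called CD-RAP, is a secreted protein with an SH3-like fold that chondrocytes and melanoma cells make. Cytl1 is a secreted cytokine-like protein made by chondrocytes and first found in blood progenitors.

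With TGF-alpha, 5 of the 6 genes fell and Cytl1 rose. With gefitinib added to TGF-alpha, the 5 were higher and Cytl1 lower than with TGF-alpha alone. Lect1 gave most of the reads. The 6 genes together took 0.330% and 0.373% of all counts in the TGF-alpha plus gefitinib libraries, 0.0844% and 0.0921% in the TGF-alpha libraries, and 0.345% and 0.344% in the control libraries. Lect1 alone made up 77.8% to 83.8% of that share.

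The genes lie on different chromosomes of GRCm38. Lect1 is at 79637690 to 79662170 on chromosome 14, and its main transcript encodes 334 residues. Ucma is at 4976122 to 4985748 on chromosome 2 and encodes 138 residues. 3110079O15Rik is at 87470271 to 87475482 on chromosome 1 and encodes 121 residues. Scrg1, at 57455923 to 57477585 on chromosome 8, encodes the shortest product of the 6, with 98 residues. Mia is at 27179742 to 27181157 on chromosome 7 and encodes 130 residues. Cytl1 is at 37735519 to 37739820 on chromosome 5 and encodes 139 residues. Positions and coding lengths come from GENCODE M21. Mia shares 410 exonic bases with Gm21983, a read-through transcript on the same strand, and how reads in those bases were counted is not given in the sources used here.

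Promoter sequence was at hand for 4 of the 6 genes, 3 that fell with TGF-alpha and the 1 that rose. The 250 bases before each gene's start in RefSeq are shown (GRCm38.p6), 5′ to 3′ on the gene's strand, so that the promoter of Cytl1 can be read beside those of genes that moved the other way. Capitals mark matches to the motifs searched.
Lect1 (Cnmd), chr14:79662184-79662433, minus strand: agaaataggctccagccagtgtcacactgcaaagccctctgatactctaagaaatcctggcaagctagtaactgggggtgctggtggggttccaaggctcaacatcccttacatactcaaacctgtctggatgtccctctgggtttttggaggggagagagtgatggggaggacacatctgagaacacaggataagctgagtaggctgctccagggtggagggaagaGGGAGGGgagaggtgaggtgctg
Ucma, chr2:4975872-4976121, plus strand: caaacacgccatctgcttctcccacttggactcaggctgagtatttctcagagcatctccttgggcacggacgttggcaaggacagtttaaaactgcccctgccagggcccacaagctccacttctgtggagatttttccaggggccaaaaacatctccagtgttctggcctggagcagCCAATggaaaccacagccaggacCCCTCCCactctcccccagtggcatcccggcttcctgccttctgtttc
Mia, chr7:27181150-27181399, minus strand: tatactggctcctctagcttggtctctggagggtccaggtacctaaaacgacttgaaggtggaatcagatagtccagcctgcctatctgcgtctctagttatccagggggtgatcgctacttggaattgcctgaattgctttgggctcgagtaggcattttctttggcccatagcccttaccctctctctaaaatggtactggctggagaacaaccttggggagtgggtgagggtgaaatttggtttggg
Cytl1, chr5:37735269-37735518, plus strand: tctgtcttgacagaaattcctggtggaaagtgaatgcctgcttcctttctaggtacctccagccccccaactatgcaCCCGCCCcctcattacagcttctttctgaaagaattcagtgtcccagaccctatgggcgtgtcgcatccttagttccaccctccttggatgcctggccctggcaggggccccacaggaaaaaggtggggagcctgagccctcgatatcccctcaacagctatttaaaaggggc
Both strands were searched for 9 short motifs: the TATA box TATAAA, the CCAAT box, a short SOX motif AACAAT and an alternative SOX form ACAATG, the AP-1 motif TGANTCA, the cyclic AMP response element TGACGTCA, the ETS core CCGGAA, the E-box CAGCTG and the GC box GGGNGGG. A GC box match stood 23 to 17 bases before the start of Lect1, 48 to 42 before that of Ucma and 173 to 167 before that of Cytl1, with the last 2 on the opposite strand, and 44.8% of 32851 promoter windows of the same length held one. Ucma also had a CCAAT match 71 to 67 bases before its start, as did 33.8% of windows somewhere in their length. No 2 of these matches overlap. The other motifs have no match in these 4 windows, where the share of all windows with a match was 12.4% for TATAAA, 9.42% for AACAAT, 10.7% for ACAATG, 6.75% for TGANTCA, 1.55% for TGACGTCA, 12% for CCGGAA and 13% for CAGCTG. These are matches of letters, and no binding was measured.

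In control cells the levels of the 6 genes, compared per length of exon, spanned more than 2 orders of magnitude. Lect1 stood at 1614 ± 22.8 CPM per kb (CPM, a gene's count relative to its library's size with TMM scaling, divided by the exon length; mean ± SD, n = 2 here and below). That level was rank 11 among 14617 tested genes with a known length. Ucma, at 527 ± 8.23 CPM per kb, had rank 68. Scrg1 at 62.6 ± 0.690, 3110079O15Rik at 49.3 ± 5.55 and Mia at 30.1 ± 0.777 CPM per kb followed, within the highest 10.6% of genes. Cytl1, at 6.09 ± 0.686 CPM per kb, was near the middle of the tested genes, of which 56.6% were lower. Neighbours in this order did not overlap between control libraries. With the length of the main transcript in place of all exons, 3110079O15Rik, at 74.4 ± 8.39 CPM per kb, stood above Scrg1, at 62.6 ± 0.690, so the order of these 2 depends on the length used.

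**Figure D1:**
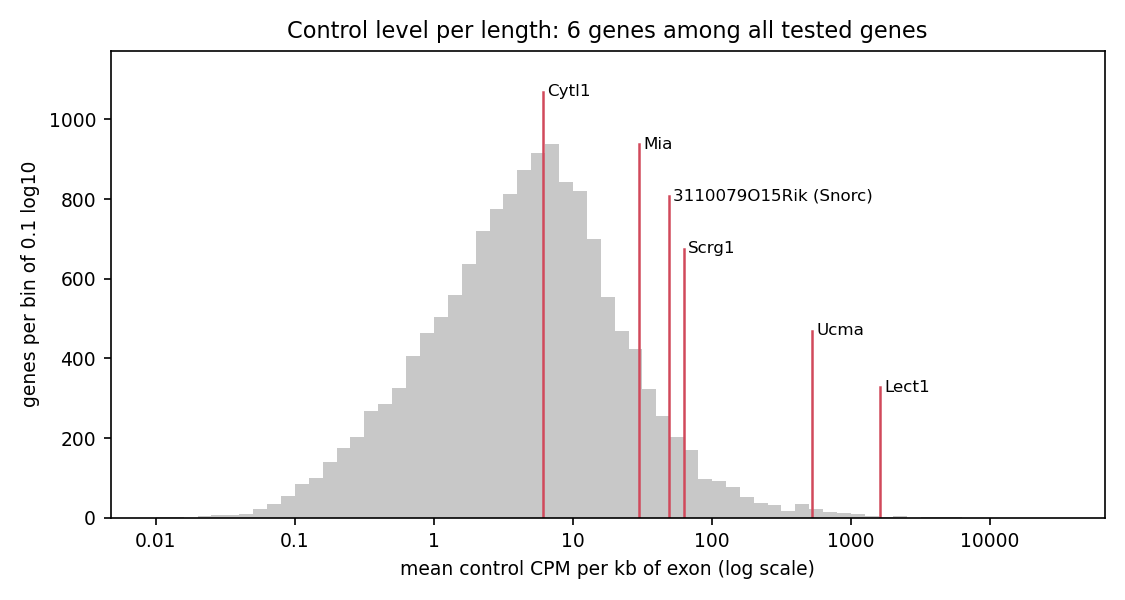
Mean control level per kb of exon (horizontal axis, log scale) of all tested genes with a known length, as a histogram, with lines at the 6 genes; line heights only separate the labels. Lect1 and Ucma lie in the right tail, at 1614 and 527 CPM per kb, and Cytl1 lies near the peak, at 6.09.

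The order changed in its lower part with TGF-alpha. Lect1 at 370 ± 16.3, Ucma at 147 ± 16.3 and Scrg1 at 28.4 ± 0.859 CPM per kb remained the top 3 of the 6, followed by Cytl1 at 17.8 ± 2.24, Mia at 13.1 ± 0.385 and 3110079O15Rik at 10.0 ± 0.342. Cytl1 thus stood above Mia and 3110079O15Rik in these libraries. By main transcript length Cytl1, at 19.3 ± 2.42 CPM per kb, was below Mia, at 23.0 ± 0.676, and still above 3110079O15Rik, at 15.2 ± 0.516. The level of Mia in every group may also depend on how reads in the bases shared with Gm21983 were counted. In TGF-alpha plus gefitinib libraries the levels were 1541 ± 150 for Lect1, 578 ± 19.0 for Ucma, 64.1 ± 1.46 for Scrg1, 51.0 ± 0.953 for 3110079O15Rik, 27.6 ± 1.93 for Mia and 3.92 ± 0.611 CPM per kb for Cytl1, the same order as in control.

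The first comparison, TGF-alpha against control, asked what EGFR activation does to chondrocytes, the subject of the series title. All 6 genes passed the test, edgeR's quasi-likelihood test with Benjamini-Hochberg adjustment over all genes tested and a threshold of 0.05. Over all tested genes 29.9% passed it, 15.9% higher and 14% lower. The median log2 fold change was -1.52 over the 6 genes and 0.00 over all tested genes. The libraries of the 2 groups did not overlap in any of the 6, as was so for 64.1% of tested genes. The 6 genes were chosen with earlier results of these data known, so these contrasts with all genes are a description.

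RNA of the chondromodulin gene, the most abundant of the 6, fell strongly. Lect1 had 660 and 703 CPM in the TGF-alpha libraries, against 3003 and 2944 CPM in the control libraries. Both TGF-alpha values lay far below both control values. It fell 4.36-fold (log2 fold change -2.13 ± 0.06 SE, edgeR adjusted p = 2.15e-12). The Gla-rich protein gene Ucma had 119 and 140 CPM in TGF-alpha libraries, against 460 and 471 CPM in control libraries, a 3.60-fold fall (log2 -1.85 ± 0.06, adjusted p = 1.98e-11). Here too the spread within each group was small beside the gap between them.

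3110079O15Rik, the Snorc proteoglycan gene, had the largest estimated fall of the 6. It had 98 and 102 reads, or 7.07 and 7.42 CPM, in the TGF-alpha libraries, against 492 and 514 reads, or 38.4 and 32.7 CPM, in the control libraries. The fall was 4.89-fold (log2 -2.29 ± 0.12, edgeR adjusted p = 1.87e-09), and 0.488% of all tested genes had a lower log2 fold change. The control libraries differed more from each other than the TGF-alpha libraries did, but stayed well above them.

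Mia and Scrg1 fell by less. The CD-RAP gene Mia had 12.8 and 13.3 CPM in TGF-alpha libraries, against 29.3 and 30.4 CPM in control libraries (2.29-fold, log2 -1.20 ± 0.11, edgeR adjusted p = 5.99e-07). Scrg1 had 20.3 and 19.5 CPM in TGF-alpha libraries, against 44.2 and 43.5 CPM in control libraries (2.20-fold, log2 -1.14 ± 0.09, adjusted p = 1.12e-07). In both genes the replicates lay close together. The 95% interval of the log2 fold change ran from -1.43 to -0.97 for Mia, the deeper of these 2, and from -1.98 to -1.71 for Ucma, the shallowest of the other 3. The 5 genes that fell thus formed a deeper group of 3 and a shallower group of 2, whose intervals did not overlap; the difference between genes was not tested.

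Cytl1 went the other way. It had 237 and 281 reads in the TGF-alpha libraries, against 89 and 93 reads in the control libraries. After scaling these were 17.1 and 20.4 CPM with TGF-alpha, against 6.95 and 5.92 CPM in control. The rise was 2.93-fold (log2 1.55 ± 0.17, edgeR adjusted p = 4.54e-06), and 98.2% of tested genes had a lower log2 fold change. Cytl1 also had the largest standard error of the 6.

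**Figure D2:**
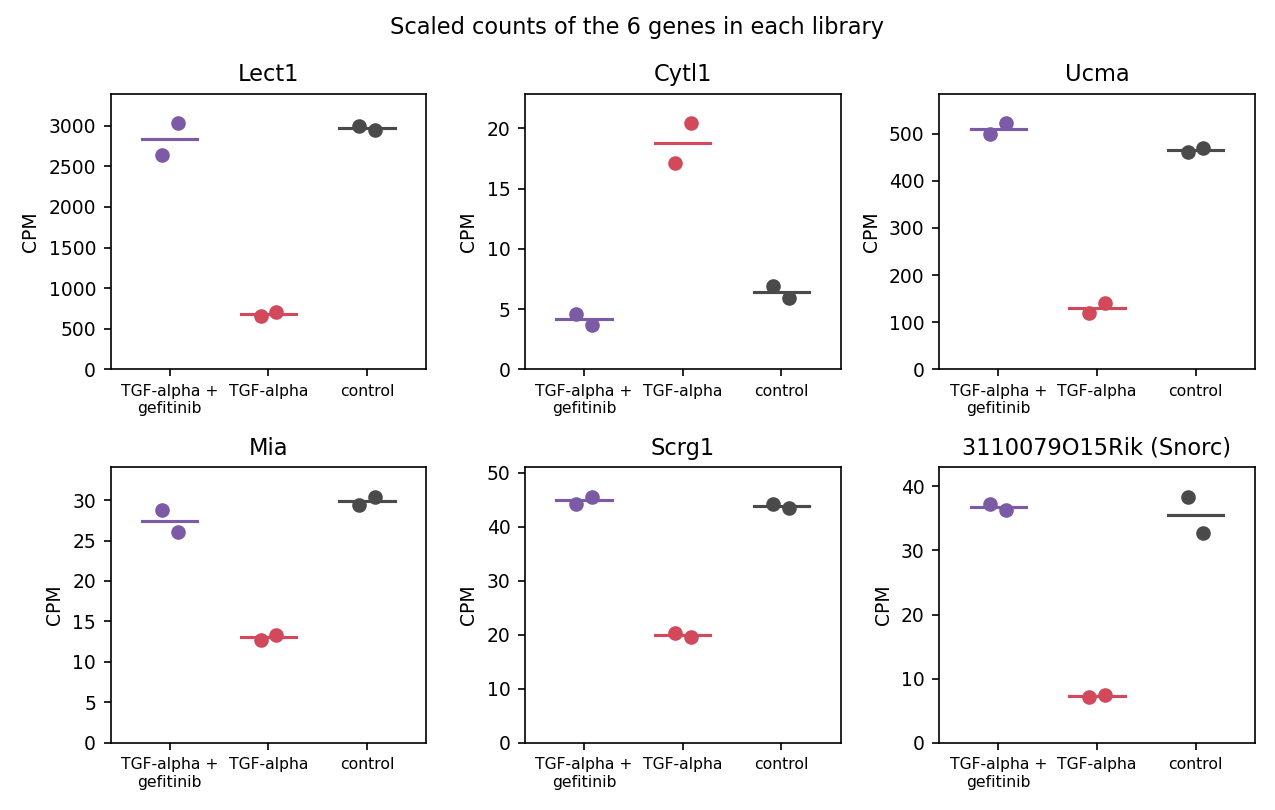
CPM of each gene (vertical axes, each from 0) in the libraries of the TGF-alpha plus gefitinib, TGF-alpha and control groups; points are libraries and lines are group means. In 5 panels the TGF-alpha points lie lowest, and in the Cytl1 panel they lie highest, at 17.1 and 20.4 CPM.

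**Figure D3:**
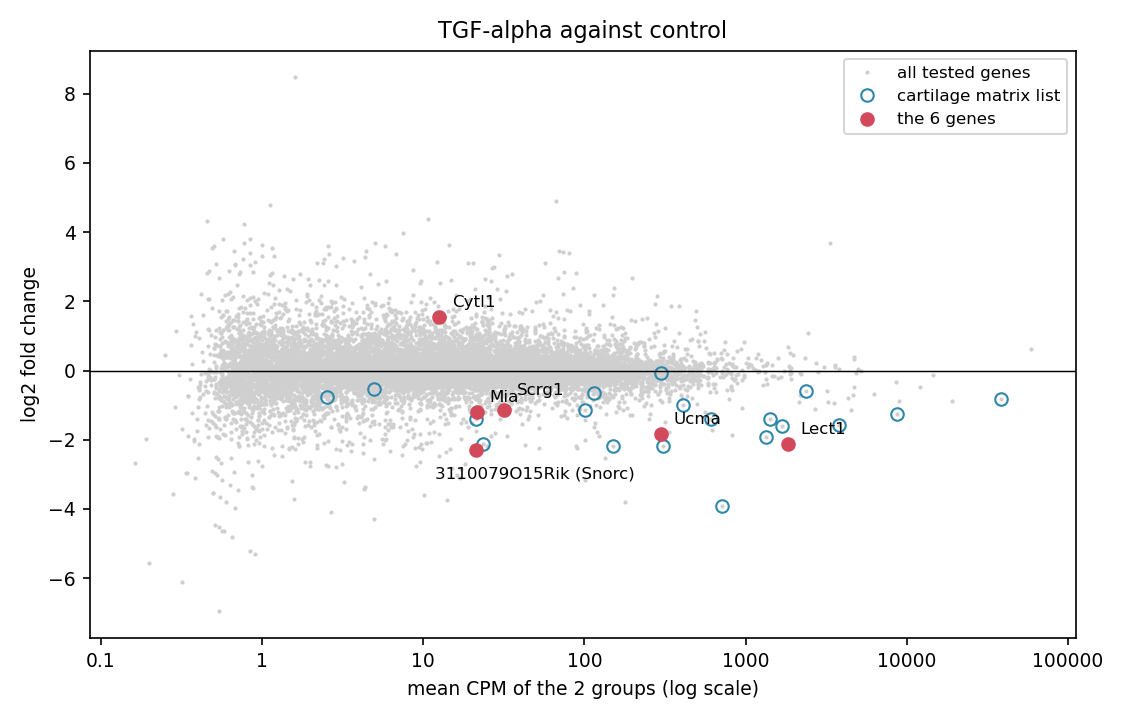
Log2 fold change of TGF-alpha against control (vertical axis) by mean CPM of both groups (horizontal axis, log scale) for all tested genes, the cartilage matrix list (open circles) and the 6 genes (filled). The 6 genes lie between -2.29 and 1.55, with Cytl1 alone above 0.

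Chondrocyte identity and ERK signalling were read from lists of known genes. The 6 chondrocyte markers (Col2a1, Acan, Sox9, Hapln1, Matn1 and Col9a1), all of them also in the matrix or factor lists described here, had reads in every library. Their summed level was 30441 to 31550 CPM with TGF-alpha, against 57494 to 61644 CPM in control. Col2a1 gave most of this sum in all 6 libraries, with 28130 and 27134 CPM with TGF-alpha and 50966 and 47236 CPM in control. In bulk RNA, fewer cells of a type and less RNA per cell cannot be told apart. All 7 ERK readout genes rose, among them the ERK phosphatase gene Dusp6 (48.8 ± 0.590 CPM with TGF-alpha and 6.05 ± 0.719 CPM in control; adjusted p = 9.82e-11). Of 19 tested genes of the cartilage matrix 16 fell, and the other 3 (Cilp2, Chad and Prelp) did not pass the test, with a list median of -1.39. Among all tested genes 14% fell and 15.9% rose. The matrilin-1 gene Matn1 fell by 3.92 on the log2 scale, and the collagen genes Col9a3 and Col11a2 by 2.19 and 1.91 (adjusted p from 8.31e-14 to 1.88e-12). Among 6 tested hypertrophy genes 3 fell and 3 rose, with Alpl, the alkaline phosphatase gene, at log2 -2.86, Ibsp, a bone sialoprotein gene, at -1.28, and Spp1, the osteopontin gene, at 3.68.

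Markers of other cells moved in part with TGF-alpha, and their part in the falls was not tested. The 4 fibroblast markers summed to 933 to 1000 CPM with TGF-alpha, against 767 to 836 CPM in control, with 1 rising and 1 falling. Dcn gave most of this sum, with 596 and 666 CPM with TGF-alpha, against 575 and 642 CPM in control. Pdgfra had 329 and 326 CPM with TGF-alpha, against 172 and 176 CPM in control. Dpt had 4.98 and 4.65 CPM with TGF-alpha, against 17.9 and 16.2 CPM in control. The 2 smooth muscle markers summed to 149 to 156 CPM with TGF-alpha, against 488 to 546 CPM in control. Nearly all of this was Acta2, while Myh11 had 1.15 and 0.436 CPM with TGF-alpha, against 0.312 and 0.828 CPM in control. Tendon markers summed to 42.8 to 43.6 CPM, against 28.7 to 32.6 CPM in control. The 4 macrophage markers summed to 8.44 to 10.03 CPM with TGF-alpha, against 1.64 to 2.48 CPM in control, most of it Cd68, while Ptprc and Emr1 (Adgre1) had 0 reads in all 6 libraries. Melanocyte markers, of interest for Mia, summed to at most 0.727 CPM with TGF-alpha, against at most 1.27 CPM in control, and Tyr and Dct had 0 reads in all 6 libraries. Glial markers, of interest for Scrg1, summed to 4.33 to 6.47 CPM with TGF-alpha, against 8.43 to 8.66 CPM in control. Osteoblast markers summed to 3.27 to 3.89 CPM with TGF-alpha, against 1.59 to 2.03 CPM in control, and none of the 3 tested passed the test. Summed levels in the TGF-alpha and control libraries were at most 0.649 CPM for endothelial and 0.649 CPM for erythroid markers. Adipocyte markers summed to 6.63 to 7.27 CPM with TGF-alpha, against 9.42 to 10.5 CPM in control.

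Cells with TGF-alpha plus gefitinib were then set against cells with TGF-alpha alone, to see how blocking the receptor kinase altered the response to its ligand. Both comparisons use the TGF-alpha libraries, so the directions of the 2 comparisons are linked. All 6 genes passed the test, 5 higher and Cytl1 lower with gefitinib, where 34% of tested genes passed, 17% higher and 16.9% lower. The median log2 fold change was 1.58 over the 6 genes and 0.01 over all tested genes. Libraries of the 2 groups did not overlap in any of the 6, as in 65.8% of tested genes. Since the 6 genes were chosen with earlier results known, these contrasts too are a description.

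Lect1 was higher with gefitinib than with TGF-alpha alone. It had 2645 and 3035 CPM in TGF-alpha plus gefitinib libraries, against 660 and 703 CPM in TGF-alpha libraries (4.17-fold, log2 2.06 ± 0.06, edgeR adjusted p = 3.56e-12). Ucma had 499 and 523 CPM with gefitinib, against 119 and 140 CPM with TGF-alpha alone (3.94-fold, log2 1.98 ± 0.06, adjusted p = 9.32e-12). 3110079O15Rik had 37.3 and 36.3 CPM with gefitinib, against 7.07 and 7.42 CPM with TGF-alpha alone. Its rise of 5.08-fold (log2 2.34 ± 0.12, adjusted p = 1.41e-09) was the largest of the 6. Mia had 28.8 and 26.1 CPM with gefitinib, against 12.8 and 13.3 CPM with TGF-alpha alone (2.11-fold, log2 1.07 ± 0.11, adjusted p = 1.96e-06). Scrg1 had 44.1 and 45.6 CPM with gefitinib, against 20.3 and 19.5 CPM with TGF-alpha alone (2.25-fold, log2 1.17 ± 0.09, adjusted p = 7.81e-08). In each of these genes both gefitinib libraries lay above both TGF-alpha libraries.

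Cytl1 had 67 and 46 reads, or 4.59 and 3.68 CPM, in TGF-alpha plus gefitinib libraries, against 237 and 281 reads, or 17.1 and 20.4 CPM, in TGF-alpha libraries. It fell 4.50-fold with gefitinib (log2 -2.17 ± 0.18, edgeR adjusted p = 2.44e-07), and 0.911% of tested genes had a lower log2 fold change.

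Of the 19 cartilage matrix genes 17 were higher with gefitinib than with TGF-alpha alone, and Prelp and Chad did not pass the test (list median 1.10). Among all tested genes 17% were called higher and 16.9% lower. Matn1, Col9a3 and the aggrecan gene Acan had the smallest p-values, with log2 fold changes of 3.48, 2.22 and 1.63. All 7 ERK readout genes were lower with gefitinib, and Dusp6 had 4.86 ± 0.201 CPM, against 48.8 ± 0.590 CPM with TGF-alpha alone. The chondrocyte markers summed to 50100 to 52905 CPM with gefitinib, against 30441 to 31550 CPM with TGF-alpha alone. Sums of other markers in the same order were 649 to 687, against 933 to 1000 CPM for fibroblast markers. For smooth muscle markers, nearly all of it Acta2, they were 436 to 473, against 149 to 156 CPM. For macrophage markers they were 2.40 to 3.44, against 8.44 to 10.03 CPM. For tendon markers they were 28.6 to 35.4, against 42.8 to 43.6 CPM, for glial markers 7.54 to 7.60, against 4.33 to 6.47 CPM, for adipocyte markers 8.91 to 9.43, against 6.63 to 7.27 CPM, and for melanocyte markers 0.754 to 1.52, against 0.721 to 0.727 CPM. For osteoblast markers the sums were 3.43 to 3.52, against 3.27 to 3.89 CPM, with 1 of 3 tested genes higher and 2 lower. The part of these other markers in the changes was not tested.

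The third comparison, TGF-alpha plus gefitinib against control, set cells with ligand and inhibitor against control cells. None of the 6 genes passed the edgeR test, where 9.52% of tested genes did, 5.27% higher and 4.26% lower. By edgeR 2 of the 6, Cytl1 and Ucma, had an unadjusted p under 0.05. The share of all tested genes under that threshold was not counted, so the 2 are not read as a result. DESeq2 called 0 of the 6. Over all genes the number called, 1463, was 666 without control 1, 649 without control 2 and 893 without TGF-alpha plus gefitinib 2. A p that misses the threshold does not show that the levels were alike, so the 95% interval of each log2 difference is given here. It ran from -0.19 to 0.05 for Lect1, from -0.14 to 0.20 for Scrg1, from -0.16 to 0.26 for 3110079O15Rik and from -0.33 to 0.09 for Mia.

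Cytl1 and Ucma were the 2 genes whose 95% interval left out 0 before adjustment, Cytl1 below and Ucma above control. Ucma had 499 and 523 CPM in TGF-alpha plus gefitinib libraries, against 460 and 471 CPM in control libraries (log2 0.13 ± 0.06, edgeR adjusted p = 0.191, interval 0.01 to 0.26). Cytl1 had 4.59 and 3.68 CPM in TGF-alpha plus gefitinib libraries, against 6.95 and 5.92 CPM in control libraries (log2 -0.62 ± 0.20, adjusted p = 0.0642, interval -1.05 to -0.20). In both genes the libraries of the 2 groups did not overlap, nor did they in Mia, and 52.1% of tested genes were like that. With genes of low count kept in the table, the adjusted p of Cytl1 was 0.0270, and over all alternatives tried it ran from 0.0270 to 0.286.

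In the same comparison 6 of the 19 cartilage matrix genes were lower and Matn3, a matrilin gene, was higher with TGF-alpha plus gefitinib than in control. Among all tested genes 4.26% were called lower and 5.27% higher. The collagen genes Col9a1 (log2 -0.51) and Col11a1 (-0.34) and Matn3 (0.77) had the smallest p-values of the list. The list median was -0.13, against -0.02 over the 6 small protein genes and 0.00 over all tested genes. The chondrocyte markers summed to 50100 to 52905 CPM with TGF-alpha plus gefitinib, against 57494 to 61644 CPM in control, and 5 of the 6 were lower.

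**Figure D4:**
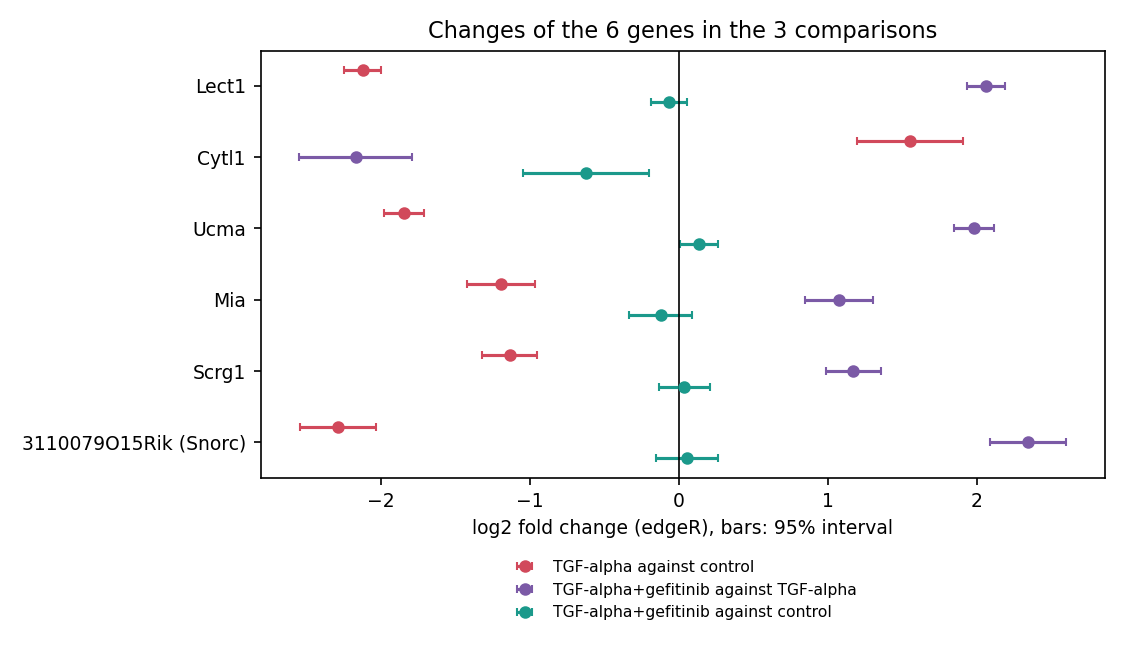
Log2 fold change (horizontal axis) of each gene in the 3 comparisons, with 95% intervals from the edgeR fit as bars. The first 2 comparisons lie on opposite sides of 0 for each gene, and in the third the intervals of Cytl1 and Ucma leave 0 out before adjustment.

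RNA of the carboxylase, vitamin K reductases and furin-type proteases was counted too. Whether each of them acts on the products of Lect1 and Ucma was not tested. Both products need a furin-type protease, and Ucma needs the carboxylase Ggcx and the vitamin K reductase Vkorc1. Of 7 such enzyme genes 4 fell with TGF-alpha and 3 did not pass the test, where 14% of all tested genes fell. Furin itself had 95.6 ± 9.05 CPM with TGF-alpha and 115 ± 5.41 CPM in control (log2 -0.27 ± 0.08, edgeR adjusted p = 0.0151). Ggcx fell by 0.24 (73.6 ± 1.76 CPM with TGF-alpha and 87.0 ± 0.118 CPM in control, adjusted p = 0.00974) and Vkorc1 by 0.29 (187 ± 6.87 CPM with TGF-alpha and 228 ± 10.1 CPM in control, adjusted p = 0.0193). Pcsk6, another proprotein convertase gene, changed most, at 71.5 ± 4.09 CPM with TGF-alpha and 147 ± 1.10 CPM in control (log2 -1.04 ± 0.06, adjusted p = 5.08e-09). With gefitinib added to TGF-alpha, 4 of the 7 were higher, 1 was lower and 2 did not pass the test. Of all tested genes 17% were called higher and 16.9% lower there. Pcsk6 was higher than with TGF-alpha alone, at 148 ± 4.23 CPM, against 71.5 ± 4.09 CPM. Ggcx, Vkorc1 and the convertase gene Pcsk7 rose by log2 0.19, 0.24 and 0.25 (edgeR adjusted p from 0.0325 to 0.0438). For Vkorc1 the gefitinib libraries lay far apart, at 193 and 248 CPM, against 182 and 192 CPM with TGF-alpha alone. Vkorc1l1, the other vitamin K reductase gene of the list, fell by 0.37 on the log2 scale, with 20.6 ± 1.15 CPM with gefitinib and 26.6 ± 0.000842 CPM with TGF-alpha alone (adjusted p = 0.00978). Furin and Pcsk5 had log2 fold changes of 0.15 and 0.07 there (adjusted p = 0.144 and 0.876).

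Genes of other vitamin K-dependent proteins did not share one direction with Ucma. Mgp, the matrix Gla protein that keeps cartilage from calcifying, rose with TGF-alpha, with 676 and 738 CPM, against 304 and 293 CPM in control (log2 1.24 ± 0.05, edgeR adjusted p = 2.53e-10). Pros1, the protein S gene, rose by log2 0.51 ± 0.06 (adjusted p = 1.53e-05), whereas Gas6, the growth arrest-specific ligand of TAM receptors, fell by 1.21 ± 0.05 on the log2 scale (adjusted p = 5.80e-11). With gefitinib added to TGF-alpha, Mgp and Pros1 fell by 1.34 and 0.56 and Gas6 rose by 1.29 on the log2 scale (adjusted p from 2.37e-11 to 6.10e-06). Bglap2, an osteocalcin gene with 5 to 29 reads per library, was higher with TGF-alpha plus gefitinib than in control, at 1.95 ± 0.0481 and 0.418 ± 0.0393 CPM (adjusted p = 0.00914), but its reads cannot be fully told apart from those of near-identical osteocalcin copies.

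Among 6 tested relatives of these genes in protein family, 2 fell and 1 rose with TGF-alpha. Of all tested genes 14% fell and 15.9% rose, and with so few relatives these counts are a description. Tnmd, the tenomodulin gene and nearest relative of Lect1, had 2.09 and 2.40 CPM with TGF-alpha, against 3.28 and 3.50 CPM in control (log2 -0.60 ± 0.33, edgeR adjusted p = 0.198). Otor, a relative of Mia expressed in the inner ear, had 3.01 ± 0.683 CPM with TGF-alpha and 2.85 ± 0.607 CPM in control (adjusted p = 0.863), and was lower with TGF-alpha plus gefitinib, at 1.45 ± 0.210 CPM, than with TGF-alpha alone (log2 -1.05 ± 0.33, adjusted p = 0.0249). Mia3, a large member of the Mia family that helps collagen leave the endoplasmic reticulum, fell by 0.43 ± 0.05 (adjusted p = 1.22e-05). Of the genes with a BRICHOS domain, which Lect1 also has, Itm2a fell by 0.50 ± 0.05 and Itm2b rose by 0.24 ± 0.05 on the log2 scale (adjusted p = 4.29e-06 and 0.00109), and Itm2c had a log2 fold change of -0.02 (adjusted p = 0.845).

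Reported partners of the proteins, receptors or ligands they bind, gave 4 rises and 1 fall among 6 tested genes with TGF-alpha. By the same test 15.9% of all tested genes rose and 14% fell. Bst1, reported as a receptor of Scrg1 in human cells, was scarce, with 24 and 16 reads in TGF-alpha libraries, against 8 and 7 reads in control libraries (log2 1.44 ± 0.49, edgeR adjusted p = 0.0391). Its co-receptor Itgb1 rose by log2 0.24 ± 0.04 (adjusted p = 0.000879). Fgf2, a growth factor that Snorc binds, had 5.39 ± 0.225 CPM with TGF-alpha and 1.97 ± 0.462 CPM in control (log2 1.44 ± 0.27, adjusted p = 0.000807). Fn1, the gene of fibronectin, which human Mia binds, rose by log2 0.62 ± 0.04 and the integrin gene Itga5 fell by 0.29 ± 0.05 (adjusted p = 2.05e-08 and 0.000799). Ccr2, reported as a receptor of Cytl1, and Cdh7, a cadherin reported to bind Mia in human melanoma cells, had 0 reads in all 6 libraries.

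Among all tested genes 14% fell and 15.9% rose with TGF-alpha. Of 7 tested transcription factor genes of chondrocytes, 3 fell, 1 rose and 3 did not pass the test. Several of these factors act on cartilage genes of this kind, but their part in the falls was not tested. Sox9 and Sox6 fell by 0.39 ± 0.05 and 0.71 ± 0.05 on the log2 scale with TGF-alpha, Sp7 fell by 0.98 ± 0.16, and Sox5 rose by 0.81 ± 0.07 (edgeR adjusted p from 7.22e-08 to 0.000229). Runx2, Mef2c and Nkx3-2 did not pass the test, with log2 fold changes of 0.19, 0.07 and -0.69. Sox9 had 310 ± 8.46 CPM with TGF-alpha plus gefitinib, 270 ± 2.84 CPM with TGF-alpha and 352 ± 2.53 CPM in control, and was lower with TGF-alpha plus gefitinib than in control (adjusted p = 0.0188).

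Genes with the most similar profile were found by the root mean square difference of log2 CPM over the 6 libraries, after each gene's mean was taken off, among 11266 genes whose mean reached 5 CPM. Nearest to Lect1 were the type IX collagen genes Col9a2 and Col9a3 (0.075 and 0.089) and the protease gene Adamts9 (0.084). Col9a3 (0.061) was also nearest to 3110079O15Rik, followed by Wscd2 (0.101) and Adamts9 (0.111). Ucma lay closest to the phosphodiesterase gene Pde7b (0.065), the clusterin gene Clu (0.098) and Wwc1 (0.101). For Mia these were the angiopoietin gene Angpt1, the semaphorin receptor gene Plxnb1 and Pappa, a protease of IGF-binding proteins (all 0.038). For Scrg1 they were Slc26a2, the sulfate transporter gene of cartilage (0.046), Pcsk6 (0.054) and the long noncoding RNA Trp53cor1 (0.054). Cytl1 was most like the chemokine genes Cx3cl1 (0.125) and Cxcl5 (0.157) and the protein kinase gene Pkn3 (0.140). Among the 6 themselves, Mia and Scrg1 differed least (0.095), then Lect1 and Ucma (0.130) and Lect1 and 3110079O15Rik (0.141), while Cytl1 differed from each of the others by at least 1.41. With 3 groups of 2 libraries many genes share such a profile, so these values are a description.

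**Figure D5:**
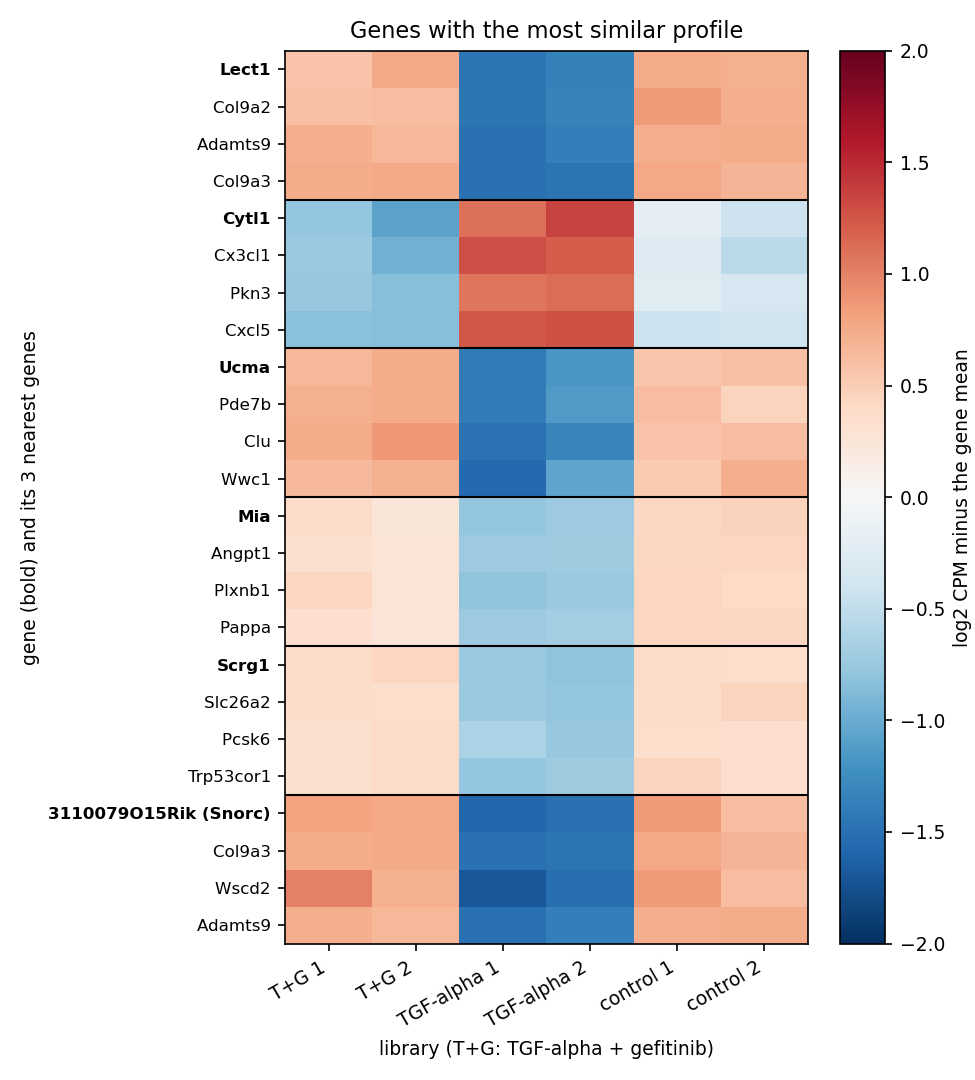
Log2 CPM minus the gene's own mean (colour) in each library (columns) for the 6 genes and the 3 genes nearest to each (rows). Cytl1 and its nearest genes are highest in the TGF-alpha columns, and all other rows are lowest there.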

How the data were processed

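RNA of 6 chondrocyte samples was sequenced as Ion Proton libraries, per the labels' protocols. The authors deposited raw read counts per gene, as whole numbers with 1 column per library. Per the submitters' processing notes, reads were placed on GRCm38. For the aligner, the counter, the annotation and the use of strand, the sources used here give no name. Totals ranged from 12317407 to 16096263 counts. The chi-square per degree of freedom between replicates, over genes with enough reads, was 3.03 to 3.83, so replicates differed by more than sampling noise.

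Genes were kept by filterByExpr (minimum count 10), scaled by TMM and tested with edgeR 4.0.16 in R 4.3.3 by a quasi-likelihood fit to all 6 libraries with group as its term. This leaves 3 residual degrees of freedom, with 11.2 prior ones. P-values are two-sided and adjusted over 15362 genes. The SE is the log2 fold change divided by the square root of F, and intervals use the t distribution on both degrees of freedom. CPM are scaled by TMM, and the likeness used a prior count of 2. Lengths came from GENCODE M21. The fit was tested on simulated data. DESeq2 1.42.0 was an alternative.

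The 6 genes and the lists were chosen with earlier results of these data known. The rule for names was all 6 genes, any tested gene of the family, enzyme, Gla, partner and transcription factor lists, up to 3 called genes with the smallest p of the matrix, hypertrophy and ERK lists, and the 3 genes nearest to each of the 6. Counts of list genes were given without a set test. Cilp2, Chad, Prelp, Cd68, Acta2, Myh11, Dcn, Pdgfra and Dpt were named after their values were seen.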

Additional observations from a re-analysis of the deposited data

How the results depend on the processing

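The 11 alternatives for each comparison were other size factors, no filter, DESeq2, a fit of the 2 groups alone, the replicate number as a block, and leaving out each of the 6 libraries. In the first 2 comparisons all 6 genes kept their direction and their call under all 11. With a library left out its partner is assumed to vary like the other groups, and the log2 fold change of TGF-alpha against control ran from -2.17 to -2.08 for Lect1, -2.41 to -2.18 for 3110079O15Rik and 1.41 to 1.67 for Cytl1.

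For TGF-alpha plus gefitinib against control, 1 of the 6 genes was called without the filter, Cytl1 (log2 -0.63, adjusted p = 0.0270); the cause was not tested. Leaving out a library moved Lect1 between -0.17 and 0.023 and 3110079O15Rik between -0.062 and 0.17, with no call, and Cytl1 between -0.80 and -0.48. The genes called over the table, 1463, were 649 to 1291 with a library left out and 946 by DESeq2.

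Deviations of same-numbered libraries from their group means correlated at 0.00340, 0.0108 and -0.0228 across genes in the 3 pairs of groups. These values showed no shift shared across genes, but they cannot tell whether same-numbered libraries came from the same culture or animal. With the number as a replicate block 4450, 5042 and 1335 genes were called in the 3 comparisons, and no call of the 6 changed. Scaling moved the median of all genes by under 0.1 on the log2 scale. Low depth is a limit for Cytl1, which had 46 to 281 reads per library, and for 3110079O15Rik, with 98 to 544.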
